A study of Mus musculus with 12 samples.

Results

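The protein disulfide isomerase (PDI) family was followed through its transcripts in cells labelled as 4T1, a mammary carcinoma line from a BALB/c mouse. Its 9 members here are P4hb, Pdia3, Pdia4, Pdia5, Pdia6, Erp29, Erp44, Txndc5 and Creld2, chosen by symbol. All 9 were found among the 30803 Ensembl genes of the WT and GSH libraries and among the 17558 symbols of the Ctrl and Cas9 libraries. The labels describe 12 samples, 3 for each of the genotypes WT, GSH, Ctrl and Cas9. Values of 10 were used, namely 3 WT, 3 GSH, 3 Cas9 and 1 Ctrl library, Ctrl 3. The other Ctrl libraries, 1 and 2, were not analysed here. The submitters give culture as the treatment of every group, expand neither GSH nor the target of Cas9, and do not say whether replicates were separate cultures or whether a genotype is 1 clone. P-values therefore measure the spread between these libraries, which may be technical.

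PDI proteins are thioredoxin-fold enzymes of the endoplasmic reticulum (ER) lumen that make, break and rearrange disulfide bonds in newly made secretory and membrane proteins. They are reoxidised by ERO1 enzymes and by peroxide-using enzymes of the ER, work beside the chaperones BiP and GRP94, and are returned to the ER by KDEL receptors. Their genes are known targets of the unfolded protein response (UPR), the programme that raises ER folding capacity, in part through the ER stress element, a promoter motif bound by ATF6 together with NF-Y.

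That motif was searched in RefSeq promoter windows (GRCm38.p6), which run from 250 bases before to 50 after each start and were matched by symbol for 8 of the 9 members. The motif read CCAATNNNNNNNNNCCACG, on both strands. It was present in the windows of Pdia6 and Creld2, 2 of 8 members, and in 0.119% of all 32851 windows (37 of 27025 genes, or 0.137%). The shorter element known as ERSE-II, searched in the same way, was in none of the members' windows and in 0.0365% of all windows. The matches are printed with the motif bases in capitals and 8 flanking bases, because they are the stretches in which members share a sequence with other ER folding genes. The Pdia6 match lies at chr12:17266483-17266517 on the plus strand and the Creld2 match, in the opposite orientation, at chr15:88819512-88819546.
Pdia6: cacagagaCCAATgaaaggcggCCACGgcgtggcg
Creld2: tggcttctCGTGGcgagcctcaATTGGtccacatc
For comparison, the 120 bases before the outermost start are printed for P4hb (chr11:120573254-120573373, minus strand), Pdia4 (chr6:47813513-47813632, minus strand) and Txndc5 (chr13:38528825-38528944, minus strand). They were picked with results of these data known, and a link of promoter letters with the changes in GSH was not tested. Capitals mark the 5-base blocks CCAAT and CCACG on either strand. P4hb held 1 of each block in this stretch, Pdia4 held 2 CCAAT blocks, and Txndc5 held neither, although windows at its other annotated starts held CCACG. Of members not printed, the full windows of Pdia3 held 2 CCAAT blocks, those of Erp44 1 of each block and that of Pdia5 1 CCACG block. Each block alone is common, in 37.4% and 32.8% of all windows, and a match is a description of letters and not of binding.
P4hb: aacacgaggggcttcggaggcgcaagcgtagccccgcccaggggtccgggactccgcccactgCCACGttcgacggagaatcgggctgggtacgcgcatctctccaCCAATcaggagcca
Pdia4: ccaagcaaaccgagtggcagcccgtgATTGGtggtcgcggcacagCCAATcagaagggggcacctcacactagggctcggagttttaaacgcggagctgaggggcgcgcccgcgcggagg
Txndc5: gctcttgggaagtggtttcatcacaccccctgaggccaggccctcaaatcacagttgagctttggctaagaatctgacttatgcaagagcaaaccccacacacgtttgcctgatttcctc

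Values are FPKM, read counts scaled to gene length in kilobases and to library size, and the 2 tables were normalised separately, so tests were made within a table only. The steps of the low values gave library totals of 18531444 to 30168737 reads in WT and GSH and of 33152215 to 39201544 reads in Ctrl and Cas9. Of the marker lists used, 7 of 7 carcinoma epithelium genes were above 0 in all 10 libraries, with summed levels of 1590 to 1764 FPKM in WT and GSH and 1777 to 2961 FPKM in Ctrl and Cas9. The 4 leukocyte genes summed to 0.705 to 1.57 FPKM in WT and GSH but to 190 to 302 FPKM in Ctrl and Cas9, although the labels name cultured breast cancer cells in all groups. In WT 3, GSH 2 and GSH 3 the 11 secretory gland genes in the table, such as odorant-binding and major urinary proteins, summed to 377, 527 and 250 FPKM, against 1.78 to 8.17 FPKM in the other 3 libraries of that table. In the same 3 libraries the 8 plasma cell and B cell genes in the table summed to 15.8, 24.4 and 34.6 FPKM, mostly Igkc, against 1.06 to 3.26 FPKM in the others. The 5 fibroblast genes summed to 0.961, 6.5 and 13.7 FPKM in WT 1 to 3 and to 12.3, 26.8 and 11.7 FPKM in GSH 1 to 3. The part of these transcripts in the members' levels was not tested.

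In WT cells the family spanned from P4hb, the founding disulfide isomerase and also the beta subunit of collagen prolyl hydroxylase, at 580 ± 8.69 FPKM (SD, n = 3), to Pdia5 at 11.9 ± 0.791 FPKM. P4hb stood between ranks 46 and 49 among all genes of a WT library, and Pdia3, the partner of calnexin and calreticulin for glycoproteins, between ranks 90 and 100. Together with Pdia6 (114 ± 3.61 FPKM) and Pdia4 (112 ± 2.19 FPKM), which overlapped each other in WT, they led the family. Txndc5 (64 ± 1.43 FPKM) and Creld2 (63.2 ± 1.28 FPKM) also overlapped, as did Erp44 (28.8 ± 1.11 FPKM) and Erp29 (27.1 ± 1.01 FPKM) next in order. P4hb made up 42.9 to 43.5% of the summed FPKM of the family in WT and Pdia3 made up 25.3 to 25.9%. The level of Erp29 depends on its gene model, since the merged exons whose length turned the deposited values into whole reads cover 9060 bases, while its longest transcript has 5204, and 24.4% of the merged bases are also exon of Naa25 on the other strand. Strand use in counting is not given in the sources used here, so reads of the shared bases could not be told apart.

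In GSH cells 7 of the 9 members were called lower than in WT, as were 16.4% of all tested genes, 0 were called higher and 2, Pdia5 and Txndc5, did not pass. For the same 7 members all GSH libraries lay below all WT libraries, which held for 23.5% of tested genes (29% had all GSH libraries above). As RPM, that is recovered reads divided by library size, the family added up to 4258, 4079 and 4228 RPM in WT 1 to 3 and to 3642, 3606 and 3587 RPM in GSH 1 to 3. On the FPKM scale the summed level fell from 1313 to 1367 FPKM in WT to 1153 to 1168 FPKM in GSH, and P4hb and Pdia3 accounted for 73.3% of the difference in means of 187 FPKM. In WT, P4hb already made up 42.9 to 43.5% of the summed level and Pdia3 25.3 to 25.9%. The median log2 change of the 9 members was -0.20, beside 0.02 over all 12283 genes tested. Changes are on the log2(FPKM + 1) scale and were tested with limma, two-sided, with Benjamini-Hochberg adjustment over all tested genes at 0.05.

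Changes of this kind were common in the comparison. In limma 37% of the 12283 tested genes passed, 16.4% as lower and 20.6% as higher in GSH, and 47.9% had an unadjusted p under 0.05. Of the genes called, 55.7% were higher. With FPKM rescaled to the FPKM total without mitochondrial genes this was 21.9%, and with the total of recovered reads without them 42.5%. Genes of the mitochondrial genome took 8.38 to 8.7% of recovered reads in WT and 5.88 to 6.26% in GSH. With the first of these rescalings all 9 members were called lower, as were 29.5% of tested genes. With the second the same count of 7 was, as were 20.7% of tested genes.

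**Figure D1:**
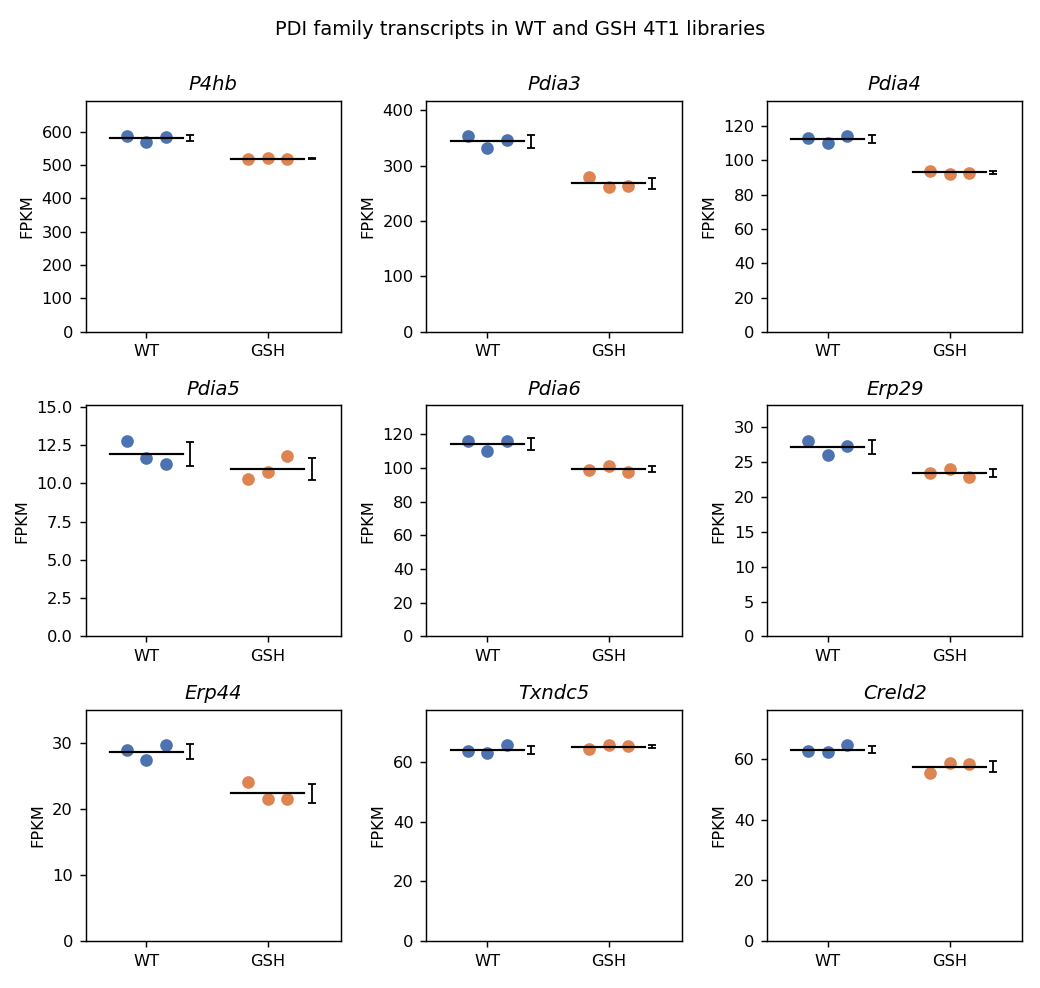
FPKM of each PDI family member in the 3 WT and 3 GSH libraries, with each axis starting at 0; points are libraries in the order 1 to 3, horizontal lines are group means and side bars are ± 1 SD. The groups are separate in 7 panels and overlap for Pdia5 and Txndc5.

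Among the isomerases that act on many substrates, P4hb had 587, 571 and 583 FPKM in WT 1 to 3 and 517, 521 and 518 FPKM in GSH 1 to 3. The groups did not overlap, and the mean was 10.6% lower (log2 change -0.16, SE 0.03, limma adjusted p = 0.00706). With no filter on low values the call of P4hb ended (adjusted p = 0.0667), and over all alternatives its adjusted p ran from 0.0011 to 0.0667. Pdia6, an isomerase that binds BiP, had 116, 110.0 and 116 FPKM in WT and 99, 101 and 97.7 FPKM in GSH. Every GSH library was again below every WT library (log2 change -0.20, SE 0.03, adjusted p = 0.00546). Pdia4 (ERp72), with more thioredoxin-like domains than P4hb, had 113, 110.0 and 114 FPKM in WT and 93.6, 92.3 and 92.9 FPKM in GSH. It had the smallest p of the family (log2 change -0.27, SE 0.03, adjusted p = 0.00178), and its 3 GSH values lay closer together than its WT values.

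Pdia3 (ERp57), which folds glycoproteins and sits in the MHC class I peptide-loading complex, and Erp44, described next, had the lowest log2 changes of the family, and their order changed with the setting. Pdia3 had 354, 331 and 347 FPKM in WT 1 to 3 and 280, 262 and 264 FPKM in GSH 1 to 3. The highest GSH value stayed well below the lowest WT value (log2 change -0.36, SE 0.04, adjusted p = 0.00228), and 3.65% of all tested genes had a lower log2 change.

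Of the members that retain or escort clients, Erp44, which holds back unassembled immunoglobulin, adiponectin and ERO1 by thiol bonds in the early secretory pathway, had 29, 27.6 and 29.7 FPKM in WT and 24.1, 21.6 and 21.6 FPKM in GSH. The groups were apart, with GSH 1 the highest of its group (log2 change -0.35, SE 0.05, adjusted p = 0.00462). Erp29, a family member without the active-site cysteine pair that helps export secretory proteins, had 28.1, 26.1 and 27.3 FPKM in WT and 23.4, 24 and 22.8 FPKM in GSH. It was lower in all 3 GSH libraries (log2 change -0.21, SE 0.04, adjusted p = 0.00738). Creld2, a cysteine-rich ER stress-inducible protein with disulfide isomerase activity, had 62.7, 62.3 and 64.7 FPKM in WT and 55.5, 58.8 and 58.5 FPKM in GSH. It had the smallest called decrease (log2 change -0.13, SE 0.03, adjusted p = 0.0218). The call of Creld2 ended without WT 1 (adjusted p = 0.0563), WT 3 (0.0622) or GSH 3 (0.0505), and over all alternatives its adjusted p ran from 0.00193 to 0.0622.

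Pdia5 and Txndc5 were the members whose groups overlapped. Pdia5, the PDI known for rearranging disulfides of the UPR sensor ATF6, had 12.8, 11.7 and 11.3 FPKM in WT and 10.3, 10.7 and 11.8 FPKM in GSH. GSH 3 lay above WT 2 and WT 3 (log2 change -0.11, SE 0.06, adjusted p = 0.19, 95% interval -0.26 to 0.03). It rested on 561 to 862 reads a library, the fewest of the family, and the interval reaches the changes of P4hb and Creld2. Txndc5 (ERp46), a 3-domain isomerase, had 63.6, 62.9 and 65.7 FPKM in WT and 64.5, 65.6 and 65.3 FPKM in GSH (log2 change 0.02, SE 0.03, adjusted p = 0.511). Its interval of -0.04 to 0.09 excludes a decrease of the size of Creld2. With FPKM rescaled to the total without mitochondrial genes Txndc5 (log2 change -0.08, adjusted p = 0.0429) and Pdia5 (-0.21, 0.0418) were called lower, while rescaling by recovered reads gave -0.01 for Txndc5 with an adjusted p of 0.706.

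The make-up of the family, which does not depend on how a library was scaled, is given as a description of the same values. Txndc5 made up 4.66 to 4.83% of the family's FPKM in WT and 5.52 to 5.68% in GSH. Pdia3 made up 25.3 to 25.9% in WT and 22.6 to 24% in GSH. The FPKM ratio of Txndc5 to P4hb was 0.108, 0.110 and 0.113 in WT 1 to 3 and 0.125, 0.126 and 0.126 in GSH 1 to 3, and that of Pdia5 to P4hb was 0.0193 to 0.0218 in WT and 0.0199 to 0.0227 in GSH.

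The libraries rich in secretory gland transcripts were found in both groups. Within WT 1, WT 2 and GSH 1, which had little of them, 8 of 9 members had a lower log2 level in GSH, as had 46.2% of tested genes, with a median difference of -0.20 (0.02 over tested genes). Within WT 3, GSH 2 and GSH 3, 9 of 9 did, as did 46.3% of tested genes, with a median of -0.21 (0.02 over tested genes), although Pdia5 and Txndc5 differed by less than 0.01. These sets have 1 library on one side and no test. The difference was -0.22 in the first set and -0.45 in the second for Erp44, and -0.29 and -0.40 for Pdia3. With a term for the set, 7 members and 13.1% of tested genes were called lower in limma.

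**Figure D2:**
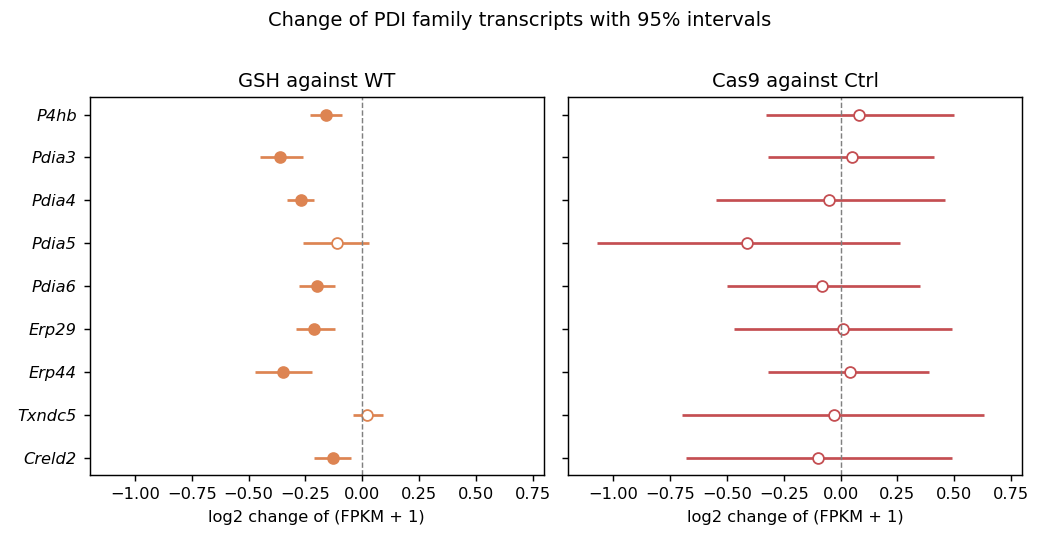
Log2 change of (FPKM + 1) for each member in GSH against WT (left) and Cas9 against Ctrl (right), with 95% intervals from limma; filled points passed an adjusted p of 0.05. In the left panel 7 intervals lie below 0, and in the right panel all 9 intervals include 0.

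Genes around the family were read from lists of their pathway, whose counts stand beside 16.4% of all tested genes called lower and 20.6% called higher and beside a median log2 change of 0.02. Of 9 tested ER thioredoxin-domain relatives, 4 fell, 0 rose and 5 did not pass (median log2 change -0.17). The membrane-anchored Tmx3 fell from a mean of 17.1 ± 0.848 to one of 12.5 ± 0.79 FPKM (SD, n = 3 each; log2 change -0.43, SE 0.05, limma adjusted p = 0.00295). Tmx1, Tmx2 and Txndc15 changed by -0.23, -0.17 and -0.25. The call of Tmx2 ended with no filter (adjusted p = 0.0905) and without any of WT 1, WT 3, GSH 1 or GSH 3 (0.09 to 0.102). With FPKM rescaled without mitochondrial genes 7 of the list were called lower, as were 29.5% of tested genes. Dnajc10 (ERdj5), the reductase of ER-associated degradation, had 38.9 ± 0.651 and 36.7 ± 0.619 FPKM (adjusted p = 0.0551), and was called lower with 3 other scalings (0.00523 to 0.0327).

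Of 11 tested enzymes that hand oxidising or reducing equivalents to the family, or scavenge peroxide in the ER, 2 fell, 0 rose and 9 did not pass, with a median log2 change of -0.09. Gpx8, a peroxidase of the ER membrane, fell from a WT mean of 113 ± 3.89 FPKM to a GSH mean of 87.4 ± 6.37 FPKM, a log2 change of -0.37 (SE 0.06, adjusted p = 0.00468). Ero1l, the main oxidase of P4hb, had 22.8 ± 1.19 FPKM in WT and 22.9 ± 1.29 FPKM in GSH (log2 change 0.01, SE 0.05, adjusted p = 0.911). Prdx4, a peroxiredoxin that also oxidises PDI proteins, had 81.8 ± 5.94 and 74 ± 2.51 FPKM (adjusted p = 0.0974), and Qsox1, which forms disulfides by itself, 10.9 ± 0.104 and 10.2 ± 0.388 FPKM (adjusted p = 0.0908). With FPKM or recovered reads rescaled without mitochondrial genes, Prdx4 (limma adjusted p = 0.0146 and 0.0496) and Qsox1 (0.00814 and 0.0336) were called lower. Prdx4 was also called lower without WT 2 (0.0171) and with voom on recovered reads (0.0412). Vkorc1l1, a vitamin K epoxide reductase relative, changed by -0.14 (adjusted p = 0.0228). Its call ended with no filter, with the term for gland-rich libraries and without WT 1, GSH 1, GSH 2 or GSH 3 (adjusted p = 0.0515 to 0.0647), and between 1 and 6 genes of the list were called lower over the alternatives.

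Of 15 tested chaperones and other folding partners that share clients with the family 9 fell, 0 rose and 6 did not pass (median log2 change -0.14). Between 6 and 12 were called lower over the alternatives. Besides the chaperones BiP (Hspa5, log2 change -0.23) and GRP94 (Hsp90b1, -0.35), the BiP cochaperone Dnajb9 fell from a mean of 6.11 ± 0.394 to one of 4.4 ± 0.275 FPKM (log2 change -0.40, SE 0.06, adjusted p = 0.00403) and Manf from a mean of 50.8 ± 3.73 to one of 40.4 ± 1.14 FPKM (-0.32, SE 0.06, adjusted p = 0.00693). Cyclophilin B (Ppib), a proline isomerase that binds several PDI proteins, had 86.1 ± 4.73 and 85.6 ± 2.18 FPKM (adjusted p = 0.924). The ER stress element shown above for Pdia6 and Creld2 was also in the promoter windows of Hspa5, Hsp90b1, Calr, Canx and Dnajc3, 5 of the 12 folding partners with a window, and in that of Ero1b among the oxidants.

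Of 7 tested genes whose proteins hold P4hb or Pdia3 in a complex 5 fell and 0 rose (median log2 change -0.14), while Tap1 (adjusted p = 0.418) and Mttp (adjusted p = 0.3) did not pass. P4ha1, a catalytic subunit of collagen prolyl hydroxylase that needs P4hb, fell from a mean of 63.7 ± 1.05 to one of 56.1 ± 0.631 FPKM (log2 change -0.18, SE 0.03, adjusted p = 0.00382), and P4ha2 changed by -0.16. Of the peptide-loading complex around Pdia3, B2m changed by -0.23 (SE 0.04, adjusted p = 0.00508), Tapbp, tapasin, by -0.14 (adjusted p = 0.0315) and Tap2 by -0.13 (adjusted p = 0.0241). Between 2 and 4 genes of this list were called lower when 1 library was left out. The call of P4ha2 ended without WT 1, WT 2, GSH 1 or GSH 3 (adjusted p = 0.0552 to 0.065). That of Tap2 ended without WT 1, WT 2, WT 3, GSH 1 or GSH 2 (0.0586 to 0.0723) and with no filter (0.0531). That of Tapbp ended without WT 1, GSH 1, GSH 2 or GSH 3 (0.058 to 0.0797), with no filter (0.0746) and with the term for gland-rich libraries (0.0696). Of the 3 KDEL receptors, Kdelr1 fell from 69.3 ± 0.825 to 59.6 ± 0.732 FPKM and Kdelr2 from a mean of 139 ± 5.52 to one of 117 ± 3.4 FPKM (adjusted p = 0.00237 and 0.00519), while Kdelr3 had 49 ± 0.348 and 46.5 ± 2.24 FPKM (adjusted p = 0.158). Kdelr3 was called lower with FPKM rescaled without mitochondrial genes (limma adjusted p = 0.00878).

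Of 13 tested sensors and transcription factors of the UPR 3 rose, 1 fell and 9 did not pass, with a median log2 change of 0.02. With FPKM rescaled without mitochondrial genes, where 29.5% of tested genes were called lower, 1 rose and 5 fell. With recovered reads rescaled in that way (20.7% called lower) 2 rose and 2 fell. When 1 library was left out 0 to 2 fell (0 without WT 1, 2 without GSH 1). Ppp1r15a (GADD34), a phosphatase subunit that restores translation, rose from a mean of 4.6 ± 0.103 to one of 6.42 ± 0.184 FPKM (log2 change 0.41, SE 0.04, adjusted p = 0.00178), and Atf4 rose from a mean of 75.3 ± 1.17 to one of 82.6 ± 0.838 FPKM (0.13, SE 0.02, adjusted p = 0.00902). The call of Atf4 ended with FPKM rescaled without mitochondrial genes (adjusted p = 0.379). Mbtps2, the site-2 protease that releases ATF6, had a log2 change of -0.19 (adjusted p = 0.0159), which ended without WT 1 (0.0534). Nfyc, a subunit of NF-Y, had a log2 change of 0.15 (adjusted p = 0.0419), a call that ended without any of WT 1, WT 3, GSH 1, GSH 2 or GSH 3 and with 4 other settings (adjusted p = 0.0607 to 0.404). The factors themselves, Xbp1 at 16.3 ± 0.791 and 15.2 ± 0.684 FPKM (adjusted p = 0.155) and Atf6 at 16 ± 0.49 and 16.3 ± 0.359 FPKM (adjusted p = 0.611), did not pass, although Xbp1 was called lower with FPKM rescaled without mitochondrial genes (log2 change -0.19, adjusted p = 0.0142).

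**Figure D3:**
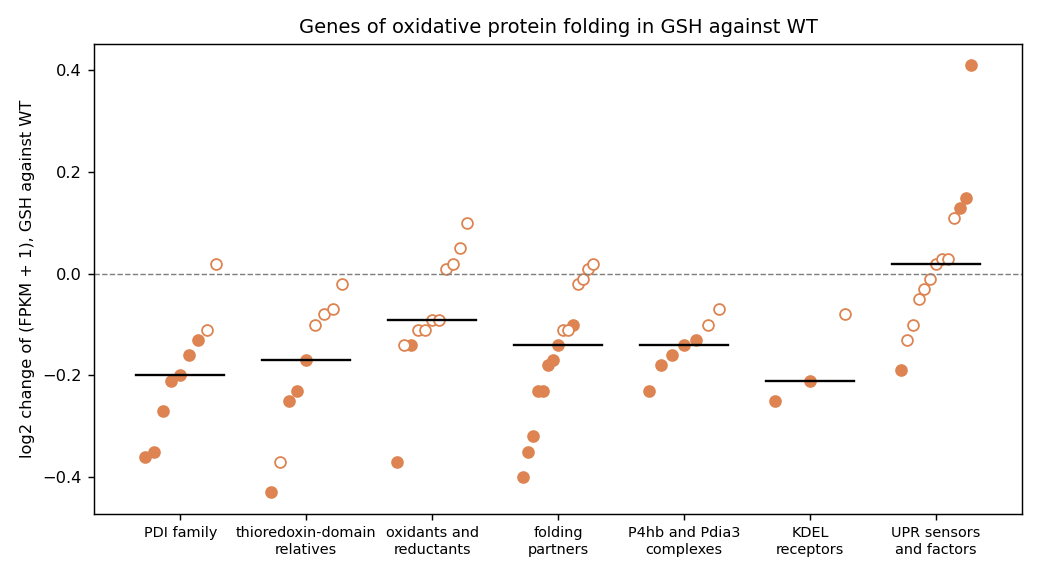
Log2 change of (FPKM + 1) in GSH against WT for each tested gene of the PDI family and of 6 pathway lists; filled points passed an adjusted p of 0.05 and bars are list medians. Medians lie below 0 in every list but the UPR sensors and factors, which have the 3 filled points above 0.

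Genes whose pattern over the 6 WT and GSH libraries was nearest to the average of the 9 members were sought among 4508 genes with a mean of at least 10 FPKM. The measure was the root mean square distance between centred log2(FPKM + 1) profiles. The nearest were Perp (0.0106), Rdh11 (0.0114), Rtn3 (0.0141), P4ha1 (0.0142) and Dad1 (0.0145). Perp had 183 ± 5.47 and 160 ± 1.39 FPKM (SD, n = 3 each) and Dad1, a subunit of the oligosaccharyltransferase, 41.3 ± 0.629 and 36.5 ± 0.301 FPKM. Of the members themselves, which are part of that average, Pdia6 (0.0164) and P4hb (0.0191) lay nearest to it, and Txndc5 (0.112) lay farthest. Of the 4508 genes, 9 lay nearer than Pdia6 and 12 nearer than P4hb. For Pdia3, Erp44 and Txndc5 these counts were 1337, 1478 and 1925.

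In the Ctrl and Cas9 libraries P4hb and Pdia3 again led the family. P4hb had 356 FPKM in Ctrl 3 and 376, 410 and 349 FPKM in Cas9 1 to 3, and Pdia3 had 284 FPKM in Ctrl 3 and 292, 309 and 279 FPKM in Cas9. The order below them was not that of WT and GSH, since Erp29 (125 FPKM in Ctrl 3) had rank 4 within the family in every library of this table, against ranks 7 to 8 in the other, and Pdia4 had rank 6. Pdia6 made up 17.6 to 18.95% of the family's FPKM and P4hb 28.6 to 31.5%. The gene lengths used for this table are not given in the sources used here, and the order was not tested across tables. In bulk samples a different share of cells and a different RNA level per cell cannot be told apart.

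Between Cas9 and Ctrl none of the 9 members passed (limma adjusted p = 1 for each, smallest unadjusted p = 0.174). In this comparison 0% of the 11407 tested genes passed, and 210 (1.84%) had an unadjusted p under 0.05. The members' median log2 change was -0.03, beside -0.01 over all tested genes. The spread rests on the 3 Cas9 libraries alone, and the lone Ctrl library is assumed to vary like them. The intervals are wide, and those of all 9 members include the log2 changes of -0.27 for Pdia4 and -0.13 for Creld2 found in GSH. Those of Pdia3 (-0.32 to 0.41) and Erp44 (-0.32 to 0.39) do not reach these genes' own changes in GSH, -0.36 and -0.35. The intervals of the other members include their own. In GSH against WT the intervals of Pdia3 (-0.45 to -0.26) and Erp44 (-0.47 to -0.22) overlap their intervals in Cas9 against Ctrl. A difference between the 2 comparisons was not tested.

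Pdia5 was the member with the largest difference and the only member for which all Cas9 libraries lay on 1 side of Ctrl 3. It had 11.1 FPKM in Ctrl 3 and 8.83, 9.54 and 6.29 FPKM in Cas9 1 to 3 (log2 change -0.41, SE 0.25, limma adjusted p = 1, 95% interval -1.07 to 0.26). All Cas9 libraries lay below Ctrl 3 for 22.5% of tested genes and above it for 20.1%. Erp44 varied least relative to its mean, with 13.3 FPKM in Ctrl 3 and 13.3, 13.8 and 13.9 FPKM in Cas9 (log2 change 0.04, interval -0.32 to 0.39).

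The other members differed among the Cas9 libraries more than between the groups. Txndc5 had 98.1 FPKM in Ctrl 3 and 118, 95.8 and 78 FPKM in Cas9 1 to 3. Pdia4 had 81.9 FPKM in Ctrl 3 and 89.7, 81.5 and 68.2 FPKM in Cas9, and Pdia6 had 234 FPKM in Ctrl 3 and 237, 232 and 200 FPKM in Cas9. Erp29 had 125 FPKM in Ctrl 3 and 144, 124 and 112 FPKM in Cas9. Creld2 had 32.1 FPKM in Ctrl 3 and 36.7, 27.4 and 26.8 FPKM in Cas9. In each of these 5 the value of Cas9 1 was the highest of the 4 libraries and that of Cas9 3 the lowest. Cas9 3 was the lowest Cas9 library for 8 of 9 members, Erp44 being the exception. How many of all tested genes had these orders was not counted. The log2 changes of Pdia4, Pdia6 and Txndc5 changed sign without Cas9 3 (0.06, 0.00 and 0.12), and that of Erp29 without Cas9 1 (-0.08).

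Markers of other cells differed among these libraries as well. The 6 macrophage genes summed to 4066 FPKM in Ctrl 3 and to 4600, 3404 and 1764 FPKM in Cas9 1 to 3, and the 7 carcinoma epithelium genes to 2491 FPKM and to 1777, 2474 and 2961 FPKM. Lyz2 was the largest part of the macrophage sum, with 2536 FPKM in Ctrl 3 and 3048 FPKM in Cas9 1. Cd68, C1qa and C1qb were also higher in Cas9 1 than in Ctrl 3. Adgre1 (31.4 FPKM in Ctrl 3 and 24.5 FPKM in Cas9 1) and Csf1r (141 and 112 FPKM) were lower there. The 5 neutrophil genes summed to 128 FPKM and to 215, 166 and 664 FPKM, all above Ctrl 3, as for 20.1% of tested genes. Nearly all of each sum came from S100a8 and S100a9. Mpo went the other way, with 0.431 FPKM in Ctrl 3 and 0.0659, 0.0711 and 0.0567 FPKM in Cas9 1 to 3. So did Elane, with 0.388 FPKM and 0.122, 0.0328 and 0 FPKM, while Ly6g lay on either side of Ctrl 3. The 5 fibroblast genes summed to 980 FPKM and to 468, 1514 and 442 FPKM, and the 4 endothelial genes to 66.4 FPKM and to 130.2, 56.3 and 84 FPKM. Kdr of the endothelial list was lower in Cas9 3 (2.44 FPKM) than in Ctrl 3 (3.62 FPKM), while Pecam1, Cdh5 and Emcn were higher. The 5 T cell genes in the table summed to 8.92 FPKM and to 19.4, 21.8 and 13.5 FPKM, all Cas9 libraries being above Ctrl 3, as for 20.1% of tested genes. Cd4 of that list went the other way, with 1.01 FPKM in Ctrl 3 and 0.903, 0.904 and 0.166 FPKM in Cas9 1 to 3. The 4 adipocyte genes summed to 71.7 FPKM and to 54.5, 37.7 and 31.9 FPKM, all below Ctrl 3, as for 22.5% of tested genes. Fabp4 of that list was higher in Cas9 1 (53.7 FPKM) than in Ctrl 3 (46.4 FPKM). Plasma cells are rich in PDI proteins, and the 7 plasma cell and B cell genes in the table summed to 1.78 FPKM and to 7.34, 3.28 and 1.88 FPKM, with Mzb1 at 0 in Ctrl 3 and Cas9 2 and Tnfrsf17 at 0 in Ctrl 3, Cas9 1 and Cas9 3. The part of these cells in the levels of the members or of the genes around them was not tested.

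**Figure D4:**
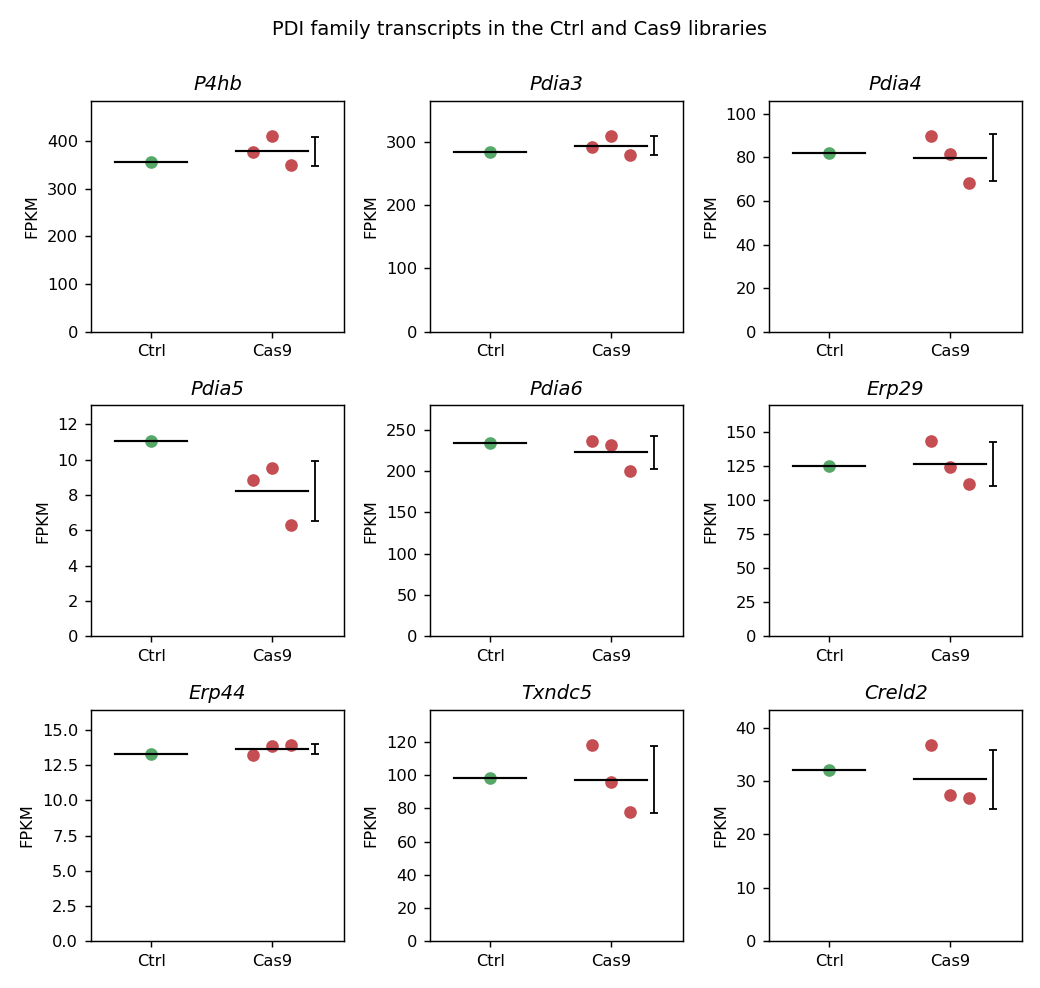
FPKM of each PDI family member in the 1 Ctrl and 3 Cas9 libraries, with each axis starting at 0; points are libraries (Cas9 in the order 1 to 3), horizontal lines are group means and side bars are ± 1 SD of the Cas9 libraries. Ctrl 3 lies within the range of the Cas9 libraries in every panel but that of Pdia5.

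No gene of the surrounding lists passed in Cas9 against Ctrl either. By unadjusted p the closest were Tap1, a peptide transporter, at 59.8 FPKM in Ctrl 3 and 78.8, 103 and 106 FPKM in Cas9 1 to 3 (log2 change 0.66, SE 0.21, limma adjusted p = 1), and the BiP cochaperone Dnajb9, at 23.8 FPKM in Ctrl 3 and 36, 33 and 30.5 FPKM in Cas9 (0.46, SE 0.15, adjusted p = 1). Ern1, the UPR sensor IRE1, had 14.3 FPKM in Ctrl 3 and 10.8, 10.5 and 9.32 FPKM in Cas9 (-0.45, SE 0.16, adjusted p = 1). B2m had 2386 FPKM in Ctrl 3 and 2920, 3076 and 2907 FPKM in Cas9. These 4 genes were picked for their p; all Cas9 libraries lay above Ctrl 3 for 20.1% of tested genes and below it for 22.5%. Tmx2 had 16 FPKM in Ctrl 3 and 15.1, 13.7 and 13.6 FPKM in Cas9 (log2 change -0.17), and Txndc12, another thioredoxin-domain relative, 53.8 FPKM and 50.4, 49.4 and 49.8 FPKM (-0.11). Sil1, the nucleotide exchange factor of BiP, had 3.7 FPKM in Ctrl 3 and 4.01, 4.43 and 4.65 FPKM in Cas9 (0.19). Ppp1r15a had 6.12 FPKM in Ctrl 3 and 6.16, 7.58 and 12.3 FPKM in Cas9 (0.39), the highest in Cas9 3. Prdx4 (0.12), the selenoprotein Selenof (0.29), Kdelr1 (0.10) and Kdelr3 (-0.16) complete them, with their log2 changes in parentheses and an adjusted p of 1 in limma for each.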

How the data were processed

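Neither the labels nor the headers give the unit. FPKM was inferred: in WT and GSH the authors' FPKM, multiplied by GENCODE M21 merged exon length, came out as whole reads (within 0.15 read in all 6 libraries) for 98.56% of 30190 genes with such a length. For Ctrl and Cas9 the same unit was assumed, and library totals were read from the value shared by 35 to 41 genes at 1 read. Per the submitters' processing notes, the build was mm8 and the tools, given without roles, were HTSeq (0.6.0), Bowtie2 (2.2.3) and HISAT2 (2). GENCODE M21, whose lengths gave whole reads in WT and GSH, is an annotation of GRCm38 and not of mm8. This difference was not resolved. Printed coordinates are those of the RefSeq promoter table (GRCm38.p6). Symbols came from the reference tables, for 30190 of 30803 identifiers.

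log2(FPKM + 1) was fitted with limma 3.58.1 (R 4.3.3; lmFit, eBayes with trend, group as the only term) over genes with a mean of 1 FPKM or more, which all 9 members exceeded. The fit was tested on simulated data. Alternatives were a pseudocount of 0.1, no filter, other scalings, a replicate term, a term for libraries rich in gland transcripts, voom on recovered reads and leaving out each library. Members and lists were chosen with earlier results of these data known. In GSH against WT the 4 genes of each list with the smallest p were named, in Cas9 against Ctrl the 2 with the smallest p, and 5 genes of nearest pattern; Dnajc10, Ero1l, Ppib, Tapbp, Xbp1 and Atf6 were added after their values were seen.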

Additional observations from a re-analysis of the deposited data

How the results depend on the processing

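In GSH against WT, 6 to 9 members were called lower and 0 higher under the 14 alternatives. The share of tested genes called lower ran from 4.51% with no filter to 29.5% with FPKM rescaled without mitochondrial genes. The calls of Pdia3, Pdia4, Pdia6, Erp29 and Erp44 held under each of the 14 alternatives. The log2 change of Txndc5 reversed to -0.08 with FPKM rescaled to the total without mitochondrial genes and to -0.01 with recovered reads rescaled in that way, an alternative chosen after seeing the data. With these rescalings the small, uncalled log2 changes of Ero1l (-0.09 and -0.03) and Atf6 (-0.08 and -0.01) reversed too, and with median-ratio scaling that of Ero1l did (-0.01). With 1 library left out Ero1l ran from -0.03 to 0.05 and Ppib from -0.05 to 0.03. With 1 library left out, 2998 (without WT 1) to 3671 of all genes passed, against 4547 with all libraries, and 6 or 7 members were lower. With no filter 3086 genes passed and 6 members were lower. With replicate number as a block 3867 genes passed and 7 members were lower; same-numbered libraries deviated together for 1 and 3 (r = 0.479 and 0.209 across genes) but not for 2 (-0.107), and WT 3 correlated better with GSH 2 (0.393), so the numbers were not taken as pairs. With the block the calls of Tmx2 (adjusted p = 0.0845), Tap2 (0.0514) and Tapbp (0.0561) ended in limma, leaving 3 genes of the P4hb and Pdia3 complexes lower. In Cas9 against Ctrl, which share only replicate number 3, no paired analysis was possible, and 0 members and 0 genes passed under the 6 alternatives. There the log2 changes of members that changed sign without 1 library ran from -0.13 to 0.06 for Pdia4, -0.12 to 0.00 for Pdia6, -0.08 to 0.10 for Erp29 and -0.18 to 0.12 for Txndc5. Rescaling without mitochondrial genes was not run there, as that table lists none. The cause of these changes was not tested. With 1 Ctrl library, small changes could not be detected. The intervals given are not adjusted for the number of genes and do not mark a detection limit. In Cas9 against Ctrl even Tap1, with a log2 change of 0.66, did not pass.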
